A study of Gallus gallus with 6 samples.

Results

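Chicken microRNAs (miRNAs) whose names carry an integer from 1400 to 1999 made up 169 of the 667 mature miRNAs counted in abdominal fat of broilers. They were taken by name alone, as every row named gga-miR- followed by such an integer, whatever its letter, copy or arm suffix. The samples were small RNA libraries of the fat at day 35, 3 from female broilers given 50 IU vitamin E and 3 from controls. All came from a feeding study of 240 healthy female chicks that began at 1 day of age, on 5 diets: DL-α-tocopherol acetate, a synthetic ester of the vitamin, was given at 0, 20, 50, 75 or 100 IU. The label of the control samples reads only control and prints no dose beside it, and both groups share sex, tissue and age. The labels leave unsaid whether each library of a group came from its own bird. The p-values therefore cover the spread among libraries, and that spread may be technical.

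A miRNA gene is transcribed into a hairpin, from which the enzymes Drosha and Dicer cut a short duplex. The strand from the 5′ side of the hairpin is called 5p and the one from the 3′ side 3p, and usually one of them is kept in Argonaute, where its seed, near the 5′ end, pairs with target messenger RNAs. miRNA numbers follow the order of discovery, and many in this range were given to hairpins found by deep sequencing of chicken embryos. Such lineage-restricted miRNAs are, as a class, known for low and tissue-restricted levels. Whether each one is limited to birds was not tested here.

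Libraries held 5844435 to 7062595 reads with vitamin E and 5028671 to 7357204 reads in control. A count of 0 allows up to 3 reads, which is 0.408 to 0.597 when scaled to 1000000 reads, depending on the library. This limit and the intervals on read shares below cover counting error only. Among rows named for tissues, the adipose-abundant list (4 of its 5 names with a row) summed to 186540 to 216071 CPM (counts scaled to 1000000 reads, on library sizes adjusted by the trimmed mean of M values, TMM) with vitamin E and 223154 to 248097 CPM in control. The nervous system list summed to 163 to 181 CPM in the vitamin E libraries and 31.1 to 48.6 CPM in the controls, and the liver list, miR-122, to 5.24 to 7.32 CPM with vitamin E and 12.4 to 20.8 CPM in control. These lists did not overlap between groups. Overlapping ranges were found for striated muscle (300.2 to 583 with vitamin E, 276 to 518 CPM in control), erythroid (3099 to 5295, 1406 to 3283), leukocyte (31804 to 40835, 30272 to 51031), epithelial (320 to 393, 312 to 428) and pancreas and gut rows (111 to 167, 105 to 923). Rows were present for 3 of 4 nervous system names, 6 of 7 leukocyte names and 5 of 6 epithelial names. The part of all these lists in the values given below was not tested.

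Most of the 169 miRNAs were barely present in fat. Every row of the table has a read in some library, so miRNAs of this range without any read are not counted here. Only 41 had at least 1 read in all 6 libraries, and 53 were seen in a single library. Reads summed over the 6 libraries were 10 or fewer for 111 of them, and exactly 1 read for 35, or 20.7% of the 169. Between 75 and 97 were detected per library: 90, 97 and 92 with vitamin E, against 91, 75 and 95 in control. The low value of 75 belonged to control 2, the library with the fewest reads.

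**Figure D1:**
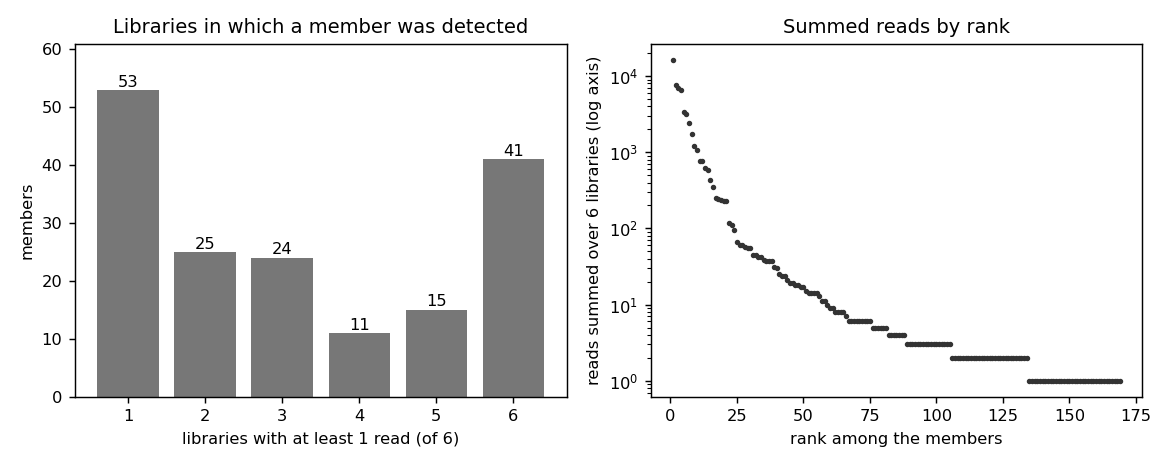
The left panel counts the 169 miRNAs by the number of libraries (1 to 6) with at least 1 read, and the right panel plots reads summed over 6 libraries on a log axis against rank. The left bars are highest at 1 library (53 miRNAs) and at all 6 (41), and the right points drop from 16241 reads to runs of miRNAs with 1 read.

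Chicken miRNAs numbered 2000 and above were detected about as sparsely, with 37 of 151 (24.5%) seen in all 6 libraries against 41 of 169 (24.3%) here. Of the 217 rows numbered below 1400, 175 (80.6%) were seen in all 6. These shares are of listed rows only, and miRNAs without any read are missing from each class. The median sum was 4 reads in both higher-numbered classes and 1114 reads below 1400. Predicted miRNAs, whose names begin with novel_, had a median of 11.5 reads.

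Detection in 1 group only was seen for 39 miRNAs with vitamin E and 32 in control, never with more than 10 summed reads for the first and 6 for the second. Just 3 had a read in every vitamin E library and none in control. These were miR-1553-5p, miR-1656 and miR-1674, named after their values were seen, each with 1 read per library. No member showed the opposite pattern. The share of such rows over all 667 miRNAs of the table was not computed, so these counts have no background. At this depth such counts do not show presence in a group or absence from it.

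All 169 together took a small share of the reads. They held 7728, 10418 and 7780 reads in the vitamin E libraries and 11283, 7365 and 12366 reads in the controls. As a share of each library that was 0.136% ± 0.0104 in the vitamin E group and 0.161% ± 0.0128 in the controls (SD, n = 3 each). The groups overlapped, since control 2 (0.146%) lay below vitamin E 2 (0.148%). A share was given no p, because the miRNAs were chosen with earlier results of these data known.

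A few miRNAs carried nearly all of these reads. miR-1559-5p alone had 28.5% of the 56940 reads, the 5 most abundant 71.8% and the 10 most abundant 88.7%. None of the 169 was among the 50 most abundant miRNAs of the table by summed reads, 4 were among the first 100 and 21 among the first 200. By mean CPM, 4 reached at least 100, 12 lay from 10 to 100, 19 from 1 to 10, and 134 stayed under 1. Levels are compared between miRNAs as CPM without a length term, since the table counts mature miRNAs, which are all short.

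The most abundant one, miR-1559-5p, ranked 71 in the table. It stood at 390, 442 and 337 CPM with vitamin E, against 430, 374 and 545 CPM in control. The groups overlapped, and it varied little, with the highest library 1.62 times the lowest. Its log2 fold change, vitamin E over control, was -0.21 (SE 0.26). The table of chicken genes of assembly GRCg7b places its hairpin inside ITGAV, which encodes the integrin αV subunit, a receptor for matrix proteins.

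Second was miR-1416-5p, at 116, 123 and 69.9 CPM in vitamin E libraries and 540, 97.8 and 265 CPM in controls. Control 1 and control 3 lay above every vitamin E library, while control 2 lay within their range. Its hairpin lies inside MAMDC2, which encodes a secreted matrix-associated protein. The log2 fold change of -1.55 (SE 0.57, 95% interval -2.86 to -0.23) was the largest in size among the members tested. Its unadjusted p was the 1 below 0.05 among them, and it did not pass after adjustment over the whole table (edgeR quasi-likelihood, Benjamini-Hochberg adjusted p = 0.480). Without the low-count filter it was 1 of 8 miRNAs of 667 that passed (edgeR quasi-likelihood, Benjamini-Hochberg adjusted p = 0.0138). Without control 1 the log2 fold change was -0.94, and without control 2 it was -1.93.

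The opposite arm, miR-1416-3p, had a small difference of the opposite sign. miR-1416-3p had 53, 51 and 21 reads with vitamin E and 20, 30 and 56 reads in control. The arm's log2 fold change was 0.18 (SE 0.54), and -0.15 without vitamin E 1 and -0.17 without control 1. Control 1, where the 5p arm was highest, had 20 reads of 3p beside 21 in vitamin E 3. After scaling vitamin E 3 was the lower of these, at 3.27 CPM against 3.49 CPM. In the comparison of arm use described further on, the 5p share of miR-1416 was 94.4% ± 1.39 in vitamin E libraries and 97.0% ± 2.56 in controls (two-sided exact permutation p = 0.3).

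miR-1662 followed at 122, 219 and 173 CPM with vitamin E, against 193, 221 and 182 CPM in control. The ranges overlapped, and the log2 fold change was -0.21 (SE 0.31), with -0.019 when vitamin E 1 was left out and -0.44 when vitamin E 2 was. Its hairpin lies inside VIPR1, the gene of a receptor for vasoactive intestinal peptide.

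For miR-1454, 1 library stood apart from the other 5. It had 145, 114 and 161 CPM with vitamin E, and 148, 409 and 118 CPM in control, so that control 2 was above all others. The log2 fold change was -0.69 (SE 0.48), and 0.09 without control 2. Its hairpin lies inside RPS12, the gene of a small ribosomal subunit protein, whose span also holds 3 small nucleolar RNA (snoRNA) genes in GRCg7b. snoRNAs guide the chemical modification of ribosomal RNA and are often encoded in introns of ribosomal protein genes.

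Among the remaining miRNAs of the 10 most abundant, miR-1456-5p averaged 70.5 ± 25.3 CPM in the vitamin E libraries and 97.2 ± 83.5 CPM in the controls (SD, n = 3 each). Control 1 was its highest library at 192 CPM. The sign of its log2 fold change, -0.46, depended on that library, without which it was 0.40. The hairpin lies inside LYRM7, which encodes an assembly factor of mitochondrial complex III. miR-1805-3p, from inside the GABA receptor subunit gene GABRG3, averaged 60.0 ± 27.2 CPM in the vitamin E libraries and 60.9 ± 43.2 CPM in the controls. Its log2 fold change of -0.02 (95% interval -1.37 to 1.33) was above 0 with scaling by library totals alone.

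miR-1451-5p was even across libraries, at 58.1, 47.5 and 48.1 CPM in vitamin E libraries and 36.1, 36.8 and 47.5 CPM in controls. The groups did not overlap, but vitamin E 2 and control 3 were almost level (352 and 361 reads before scaling). The log2 fold change was 0.35 (SE 0.33), and the hairpin lies inside RNGTT, the gene of the messenger RNA capping enzyme.

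miR-1552-5p was the member with the largest positive log2 fold change, 0.96 (SE 0.46, 95% interval -0.10 to 2.01), and it did not pass (edgeR quasi-likelihood, Benjamini-Hochberg adjusted p = 0.627). It stood at 48.1, 36.7 and 43.0 CPM with vitamin E, against 20.2, 34.1 and 11.7 CPM in control. No control reached the lowest vitamin E library, and control 2 came closest. The value was 0.63 without control 3 and 1.45 without control 2. Its hairpin lies inside MAP4K4, the gene of a stress-responsive kinase studied in adipocytes.

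miR-1729-5p had 33.6, 28.3 and 49.2 CPM in vitamin E libraries and 7.67, 33.5 and 17.4 CPM in controls. Control 2 lay within the vitamin E range. A log2 fold change of 0.93 (SE 0.56) did not pass the threshold, and it was 0.50 without control 1 and 1.51 without control 2. The hairpin lies inside SEPTIN5, which encodes a filament-forming GTPase.

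**Figure D2:**
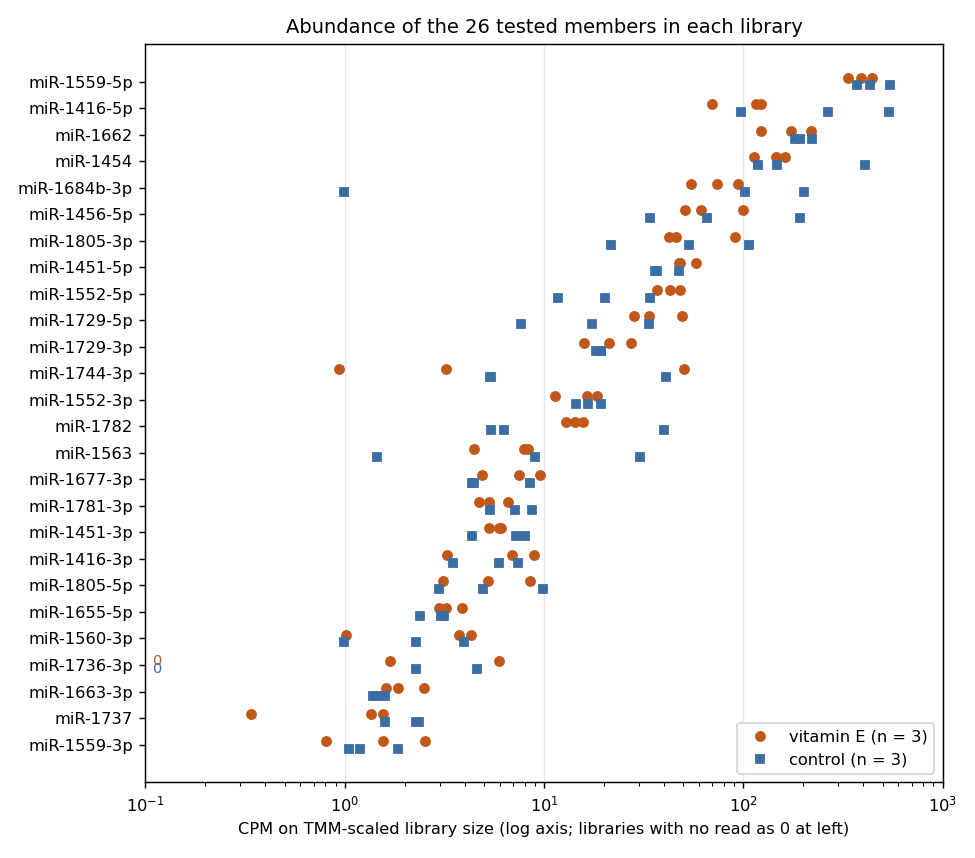
CPM on TMM-scaled library sizes (log axis) of the 26 miRNAs that passed the low-count filter, with circles for 3 vitamin E libraries and squares for 3 controls, sorted by mean level. Most rows overlap between groups, miR-1684b-3p has 1 control at 0.99 CPM, and miR-1736-3p has a library at 0 in each group.

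The comparison of vitamin E with control asked which miRNAs differ with the supplement. Of the 169, 26 passed the low-count filter and were tested, within a fit to all 238 miRNAs of the table that passed. The other 143 were not tested. They held 2.84% of the reads of all 169, with a median of 3 summed reads, and the largest was miR-1684a-3p with 430. No tested member passed the adjusted threshold of 0.05, where 0.42% of all 238 tested (1 miRNA) did. At an unadjusted p under 0.05 there was 1 member, miR-1416-5p, against 18 of all 238 (7.56%; 2.52% lower, as this member is). DESeq2 at that unadjusted level gave 2 of 25 members, and its share over all miRNAs was not computed. Past adjustment DESeq2 gave 0 members, and 7 of 235 miRNAs in all. The members' Benjamini-Hochberg adjusted p-values in edgeR's quasi-likelihood test lay between 0.480 and 0.991.

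Directions were mixed, with 12 members of 26 above 0 (45.8% of all 238) and 14 below (54.2% of all 238). The members' median log2 fold change was -0.05, beside -0.07 over all 238 tested. In both limma fits on TPM the split was 15 and 11. The median shift over all tested miRNAs was 0.13 in each of these fits, and their shares over all 238 were not computed. The 2 groups did not overlap for 4 members of 26, 3 higher and 1 lower. Over all 238 the share was 13.9% (8.82% higher, 5.04% lower), near the 15.4% of the members. The 3 higher were miR-1451-5p, miR-1552-5p and miR-1663-3p. The lower one, miR-1737, had 2, 10 and 10 reads with vitamin E and 13, 8 and 18 reads in control. Its groups part only after scaling, since control 2 is the smallest library (log2 fold change -0.92, SE 0.57).

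A p that misses the threshold does not show that the groups were alike, and the intervals were wide. The 95% interval of the log2 fold change reached 1.24 to either side of the estimate at the median over the 26, from 0.60 for miR-1559-5p to 3.14 for miR-1736-3p. It included 0 for 25 of 26. The narrow interval of miR-1559-5p, -0.81 to 0.39, lies within a doubling in either direction.

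**Figure D3:**
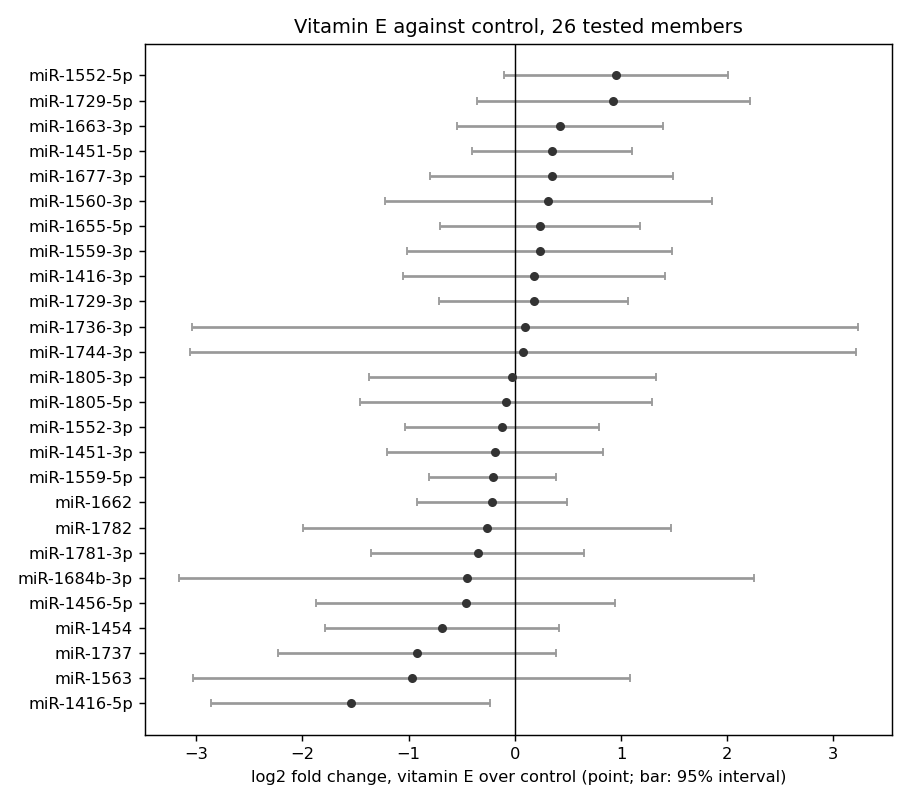
Log2 fold change of vitamin E over control for the 26 tested miRNAs, with points for the estimate and bars for the 95% interval, sorted by estimate. miR-1416-5p, at -1.55, has the 1 interval that leaves out 0, and miR-1736-3p and miR-1744-3p have the widest.

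Of the 26 tested miRNAs, 20 had a log2 fold change between -0.5 and 0.5, among them most of the less abundant ones. miR-1677-3p, whose hairpin lies inside the ephrin receptor gene EPHA7, had 29, 71 and 48 reads with vitamin E and 25, 43 and 34 in control. miR-1781-3p had 28, 49 and 34 reads with vitamin E, against 41, 27 and 66 in control. miR-1655-5p, from inside the laminin γ1 gene LAMC1, was steady at 23, 24 and 19 reads with vitamin E and 18, 12 and 23 reads in control. Log2 fold changes were 0.35, -0.35 and 0.23 for these 3, each with an SE of 0.41 or more and with overlapping groups. With 1 library left out, miR-1677-3p was between 0.098 (without vitamin E 2) and 0.72 (without control 2), miR-1781-3p between -0.53 (without control 2) and -0.21 (without control 3), and miR-1655-5p at its lowest 0.12 (without control 2).

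miR-1663-3p had 11, 12 and 16 reads with vitamin E and 8, 8 and 11 in control (log2 fold change 0.43, SE 0.42). Its groups did not overlap in CPM, at 1.62 to 2.49 against 1.39 to 1.58, but a single read is a large step at that level. miR-1560-3p, from inside the chromatin regulator gene ANKRD11, ranged from 6 to 32 reads with vitamin E and from 5 to 30 in control. Its log2 fold change of 0.31 fell below 0 without vitamin E 2 (-0.04) and without control 2 (-0.08). The minor arms miR-1805-5p, miR-1451-3p, miR-1552-3p, miR-1729-3p and miR-1559-3p had log2 fold changes from -0.18 to 0.23, none past the threshold. The signs of miR-1729-3p, miR-1552-3p and miR-1559-3p turned without vitamin E 1, and that of miR-1805-5p without vitamin E 3 and without control 3. For miR-1559-3p the sign turned in 2 of its 15 alternative fits.

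Some members differed widely between libraries of the same group. They were picked out after their values were seen, by the spread of log2 CPM within groups. Of the 20 most variable of the 238 tested miRNAs, 5 were members (19.2% of the 26) and 15 were others (7.08% of 212). The others pool all remaining classes and were not matched for read level, whose part in this was not tested. miR-1684b-3p, miR-1744-3p and miR-1736-3p held ranks 1, 2 and 3, miR-1563 rank 5 and miR-1782 rank 20. In all 5 the groups overlapped. miR-1736-3p was at 0 in 1 library of each group, and the other 4 had reads in all 6 libraries, with the highest CPM from 7.40 times the lowest (miR-1782) to 204 times (miR-1684b-3p).

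miR-1684b-3p had 560, 547 and 351 reads with vitamin E and 1160, 5 and 774 reads in control. Control 2 was nearly empty, at 0.99 CPM where control 1 had 202. Its log2 fold change was -0.45 (SE 1.17), 0.37 without control 1 and -0.99 without control 2. The related miR-1684a-3p had 282, 0 and 1 reads with vitamin E, and 10, 135 and 2 reads in control. It was thus high in vitamin E 1, and in control 2, where miR-1684b-3p was low, while vitamin E 1 had both.

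Summed over the pair, the libraries held 842, 547 and 352 reads with vitamin E and 1170, 140 and 776 reads in control. miR-1684a-3p made up 33.5% of the pair in vitamin E 1 and 96.4% in control 2, and 0.85% or less in the other 4 libraries. Both share a family number, and the sources used here do not give how reads that match both were assigned. Their separate values are therefore uncertain. Neither hairpin had a matching entry in the gene table.

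miR-1744-3p had 19, 375 and 6 reads with vitamin E and 31, 27 and 312 reads in control. Vitamin E 2 and control 3 were high, and the other 4 were low. Its log2 fold change was 0.08 (SE 1.36), -3.09 without vitamin E 2 and 1.71 without control 3. Its hairpin lies inside SEMA6D, which encodes a membrane semaphorin.

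miR-1736-3p had 10, 0 and 38 reads with vitamin E and 13, 0 and 35 reads in control. One library of each group was at 0, and they are not the pair of libraries in which miR-1744-3p was high. Its log2 fold change was 0.10 (SE 1.36), and RLE and upper-quartile scaling placed it at or below 0. The hairpin lies inside CARS2, the gene of the mitochondrial cysteinyl-tRNA synthetase.

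miR-1782, from inside the ubiquitin ligase gene RNF152, had 85, 96 and 101 reads with vitamin E and 229, 32 and 41 in control. The vitamin E libraries lay close together and between the controls, and the log2 fold change of -0.26 was 1.22 without control 1. miR-1734, which did not pass the low-count filter, had 39, 4 and 2 reads with vitamin E and 0, 2 and 13 reads in control. Its highest library was vitamin E 1.

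**Figure D4:**
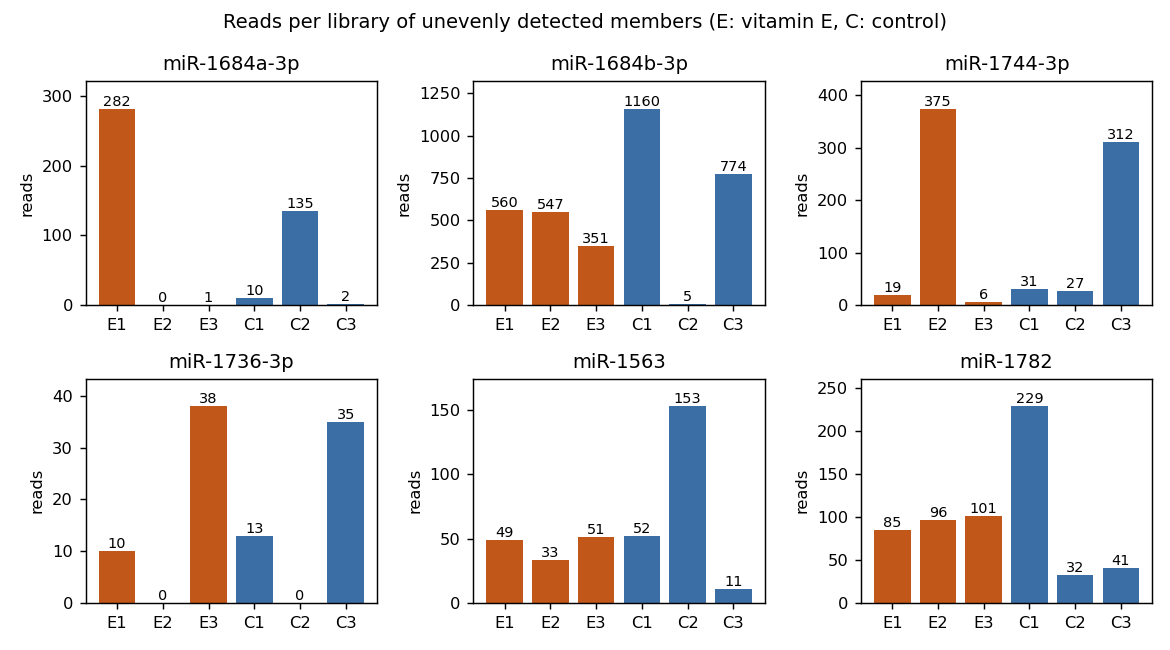
Reads per library, not scaled, of 6 unevenly detected miRNAs, with vitamin E libraries 1 to 3 (E1 to E3) left of control libraries 1 to 3 (C1 to C3). The high libraries differ from panel to panel: E1 and C2 for miR-1684a-3p, E2 and C3 for miR-1744-3p, E3 and C3 for miR-1736-3p, C2 for miR-1563 and C1 for miR-1782.

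miR-1563 had 49, 33 and 51 reads with vitamin E and 52, 153 and 11 reads in control. Control 2 was the highest and control 3 the lowest library. The log2 fold change was -0.97 (SE 0.90), and 0.50 without control 2. Its gene carries the symbol SNORD69 in the gene table, the name of a box C/D snoRNA, with gga-mir-1563 as a synonym. That gene lies inside GNL3, which encodes the nucleolar protein nucleostemin and whose span also holds 3 snoRNA genes.

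One further member has a snoRNA symbol. The gene of miR-1434 is listed as SNORD37, inside the elongation factor gene EEF2, and miR-1434 had 4, 2 and 5 reads with vitamin E and 6, 1 and 0 in control. Of the 105 hairpins inside a protein-coding gene, 2 (1.90%) lay in a gene whose span holds entries classed as snoRNA: miR-1454 and miR-1563. Both had control 2 as their highest library, at 409 and 30.3 CPM, while miR-1434 had 1 read there. Control 2 was also the highest library of miR-1662 (221 CPM), whose host gene VIPR1 holds no such entry. The shared peak was noticed after the values were seen. The share of protein-coding genes that hold a snoRNA entry was not computed, so the 1.90% has no background. Whether reads of these rows are mature miRNAs or snoRNA fragments was not tested.

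Arm use could be read for 16 hairpins, those with both arms listed, at least 50 reads over both arms and a read in every library. The last condition left out miR-1736, which had 96 reads of 3p and 2 of 5p but no reads in vitamin E 2 or control 2. Names in this range often lack an arm: 87 of the 169 have no arm suffix, 42 are 5p and 40 are 3p, and 30 hairpins have both. Of the 16, 9 gave mostly 5p and 7 mostly 3p reads. In 8 of 16 the major arm held over 90% of the reads, while that was so in 65 of 83 other named hairpins under the same minimum. Among the 8 is miR-1684a, with 430 of 454 reads from 3p, an arm whose values are uncertain as said above. Its 5p share ran from 0% to 100% between libraries. The median share of the major arm was 89.7% here and 98.4% among the others. An arm without any read has no row, so hairpins listed by a single arm are outside these counts. Among them are those of miR-1684b-3p (3397 reads) and miR-1744-3p (770 reads). The part of this selection and of read depth in the difference was not tested.

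The 5p arm held nearly all reads of miR-1559 (99.7% of 16298), miR-1456 (99.6% of 3164) and miR-1416 (97.1% of 7882). miR-1451 also favoured 5p, at 89.8% ± 1.07 in the vitamin E group and 86.0% ± 3.86 in the controls (SD, n = 3 each). The 3p arm held most reads of miR-1805, miR-1677, miR-1781 and miR-1560. For miR-1805 the 5p share was 8.51% ± 1.69 with vitamin E and 9.61% ± 2.04 in control.

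miR-1552 and miR-1729 used both arms. miR-1552-5p made up 81.0%, 66.5% and 72.4% of its hairpin's reads with vitamin E, and 51.1%, 70.2% and 41.4% in control. The Wilson 95% interval of control 3 was 35.0% to 48.1%, from 89 reads of 5p and 126 of 3p, so that 3p led there. Group means were 73.3% ± 7.27 and 54.2% ± 14.7, with overlap at control 2, and the two-sided exact permutation p was 0.2 (Benjamini-Hochberg adjusted p = 0.727 over 16 hairpins). miR-1552-3p itself averaged 15.4 ± 3.68 CPM in the vitamin E group and 16.8 ± 2.46 CPM in the controls.

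miR-1729-5p held 55.1%, 64.2% and 69.9% of its hairpin's reads with vitamin E, against 28.4%, 64.8% and 47.3% in control. In control 1 it had 44 reads beside 111 of 3p (Wilson 95% interval 21.9% to 35.9%). Means were 63.1% ± 7.46 and 46.8% ± 18.2 (exact permutation p = 0.3, two-sided, adjusted p = 0.727). For both hairpins the spread between controls was larger than the spread between vitamin E libraries.

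**Figure D5:**
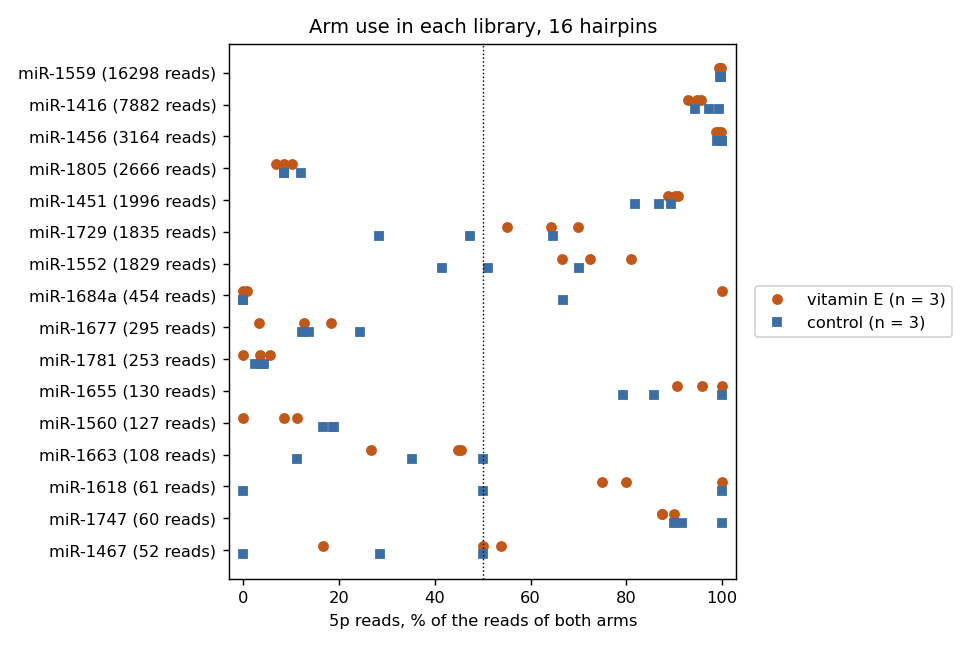
Reads of the 5p arm as a percent of the reads of both arms, for 16 hairpins sorted by their reads, with circles for 3 vitamin E libraries and squares for 3 controls. miR-1559, miR-1456 and miR-1416 sit near 100%, miR-1805 and miR-1781 near the left edge, and miR-1729 and miR-1552 spread across the dotted line at 50%.

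No hairpin changed arm use past the threshold, and the design cannot do so: with 3 libraries a group the smallest p of the permutation test is 0.1. The 1 hairpin at that limit was miR-1560, with a 5p share of 6.56% ± 5.82 with vitamin E and 18.1% ± 1.25 in control. It rests on 0, 3 and 3 reads of 5p with vitamin E and 3, 1 and 7 reads in control. Groups not overlapping in 1 of 16 hairpins (6.25%) compares with 8 of 83 (9.64%) among the other named hairpins. The major arm differed between libraries in 5 of 16 hairpins and in 5 of 83 others. Of those 5, miR-1684a, miR-1618 and miR-1467 had under 10 reads over both arms in at least 1 library, which leaves miR-1552 and miR-1729.

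By position, these hairpins resembled the other named hairpins, pooled, in lying inside genes, while a smaller share had a second miRNA gene nearby. Of 139 hairpin names, 130 matched the GRCg7b gene table, and 105 of those (80.8%) overlapped a protein-coding gene, beside 179 of 232 other named hairpins (77.2%). Strand and exons are not part of that table, so sense or antisense and exonic or intronic position are not given. A second miRNA gene within 10 kb was present for 11 of 130 (8.46%), against 86 of 232 (37.1%). For miR-1467, miR-1698 and miR-1784 the only such gene overlaps the hairpin itself (MIR1467-2, MIR1698-2 and MIR1784B). Overlaps among the 86 are not given. These are descriptions of the annotation, with no test. Among the hairpins of the 10 most abundant members that matched, only miR-1552 has such a neighbour, MIR6543. Rare members lie beside well-known genes: miR-1732 (1 read) near MIR196B in the HOXA9 region, miR-1682 (1 read) near MIR33-2, and miR-1720-3p (14 reads in all) near MIR7-2. They were named after the neighbours were seen.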

How the data were processed

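One table of 6 libraries was used. Per the file headers and values, it holds whole read counts per mature miRNA, which the authors did not normalise. Beside them the authors deposited TPM, which equals count over library total times 1000000. The sources used here do not give the trimming, the aligner, the rule for assigning reads, the miRNA set or the assembly. No mature sequences were used here.

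Counts were fitted over the whole table with edgeR 4.0.16 (R 4.3.3): TMM scaling, filterByExpr by group (minimum count 10, minimum total 15) and the robust quasi-likelihood F test, with Benjamini-Hochberg adjustment over 238 miRNAs at 0.05. SEs are the log2 fold change over the root of F. The biological coefficient of variation was 0.441. The fit was tested on simulated data that varied less between libraries than these do, so that check gives no error rate for these data. Arm shares were compared by two-sided exact permutation over 20 relabellings. Alternatives used DESeq2 1.42.0 and limma 3.58.1. Members named singly are those tested, both arms of the hairpins compared for arm use, and others where stated. Members, lists and tests were chosen with earlier results of these data known. The GRCg7b gene table served for names and neighbours only, since the build of the counts is not stated.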

Additional observations from a re-analysis of the deposited data

How the results depend on the processing

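Members past the adjusted threshold numbered 0 in 16 of 17 alternative fits and 1 without the low-count filter (miR-1416-5p, edgeR quasi-likelihood, Benjamini-Hochberg adjusted p = 0.0138, over 667 miRNAs; 0.0138 to 0.935 over its alternatives). The count over all miRNAs was 0 with upper quartile scaling, 8 without the filter, 7 with DESeq2, 3 with limma on log2(TPM + 1), 5 with the replicate block, and 0 to 1 with a library left out. Unadjusted p under 0.05 was seen for 5 of 169 members without the filter. In the other fits it was seen for 0 to 4 members, with 13 to 31 members tested. The share over all miRNAs at that level was not computed for these fits. No label says that the replicate numbers pair the libraries. Correlations of deviations between libraries of the same number were -0.16, 0.03 and -0.02, which cannot settle whether they are paired. With the block 0 members passed. With library totals as the scaling, the median shift over all tested miRNAs was 0.107 on the log2 scale. The cause of these differences was not tested.

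Signs turned in members near 0 or with uneven libraries. miR-1805-3p was at 0.029 with library totals alone, 0.15 with limma-voom, 0.27 with limma on log2(TPM + 1), 0.28 on log2(TPM + 0.1) and 0.20 with the replicate block. In the same order from limma-voom on, miR-1684b-3p was at 1.25, 1.20, 1.47 and 0.47, miR-1744-3p at -0.97, -0.59, -0.84 and -0.79, and miR-1782 at 0.37, 0.41, 0.47 and 0.40. RLE scaling gave -0.018 for miR-1744-3p and -0.00047 for miR-1736-3p, and miR-1736-3p was at -0.012 with upper quartile scaling and -0.28 with limma-voom. miR-1805-5p was at 0.058 and 0.084 in the limma fits on TPM and 0.0019 with the block.

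With 1 library left out, log2 fold changes ran from -0.54 to 0.65 for miR-1805-3p, -0.53 to 0.48 for miR-1805-5p, -0.029 to 0.33 for miR-1729-3p, -0.30 to 0.056 for miR-1552-3p, -0.17 to 0.45 for miR-1416-3p, -0.21 to 0.54 for miR-1559-3p, -3.09 to 1.71 for miR-1744-3p, -0.075 to 0.84 for miR-1560-3p, -1.57 to 1.07 for miR-1736-3p, -0.99 to 0.37 for miR-1684b-3p, -0.87 to 0.40 for miR-1456-5p, -0.75 to 1.22 for miR-1782, -1.0002 to 0.086 for miR-1454 and -1.52 to 0.50 for miR-1563. Without a change of sign, they ran from -0.35 to -0.084 for miR-1559-5p, 0.19 to 0.46 for miR-1451-5p, -0.41 to -0.11 for miR-1451-3p, 0.18 to 0.54 for miR-1663-3p and -1.32 to -0.51 for miR-1737.

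Detection depends on its definition: 41 members had a read in all 6 libraries, 39 had 10 reads in any library and 34 had 1 CPM in 3 libraries. Hairpins whose groups did not overlap in arm use numbered 0 at a minimum of 200 reads and 1 to 6 with a library left out. A smaller group separates from the other more easily, and the other named hairpins were not counted at these settings. The share of reads held by the members stayed lower with vitamin E in all 8 alternatives. The member left out among these was miR-1559-5p. No alternative left out miR-1416-5p, which had 685, 912 and 449 reads with vitamin E and 3095, 494 and 2016 in control. How much of the lower share rests on miR-1416-5p was not computed. Depth limits all statements on members with few reads.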
